A study of Arabidopsis thaliana with 22 samples.

Results

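The ahl22 frs7 frs12 triple mutant was compared directly with ahl22. By their labels the groups differ in the addition of frs7-1 and frs12-1 to plants that already carry ahl22-1, but their counts also come from separate tables. The members are the 4 RNA-seq libraries of these genotypes, 2 of ahl22 and 2 of ahl22 frs7 frs12, out of 12 distinct RNA-seq libraries in the count tables of the series. They were taken by their column names from 2 tables and joined by gene identifier. RNA came from whole Arabidopsis seedlings 5 days old, grown under 16 h light and 8 h dark in the Col-0 background as labelled, and no agent was applied. Both groups are homozygous for ahl22-1, and the triple mutant was picked by PCR from the F2 of a cross of ahl22 with frs7 frs12, so each genotype is 1 line. ahl22-1 and frs12-1 are T-DNA insertions in Col-0, whereas frs7-1 comes from the FLAG collection, which was made in the accession Wassilewskija. The hour of harvest is not given in the sources used here. The paper calls its RNA-seq replicates biological, but whether they came from separate plates or harvests is not given. The p-values measure the spread between these libraries, which may not cover that between harvests.

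AHL22 is an AT-hook protein that binds AT-rich DNA at nuclear matrix attachment regions and restrains hypocotyl growth and flowering. FRS7 and FRS12 belong to the FHY3 and FAR1 family of transcription factors, which descends from transposases, and are known as repressors that act with the clock and with daylength on flowering, growth and glucosinolate genes. The direct comparison asks what the loss of the FRS proteins adds in plants in which AHL22 is already missing.

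The primers with which the alleles were genotyped bracket the site of each insertion. They are given 5′ to 3′, with the position of their single perfect match in TAIR10.1 (RefSeq).
ahl22-1 LP, chr2:18727064-18727085, plus strand: gaaaagactcgtgactgtttgc
ahl22-1 RP, chr2:18728234-18728254, minus strand: aagacggtgacactttccatg
frs7-1 LP, chr3:1890795-1890815, plus strand: tgaaacaaccatgagaaagcc
frs7-1 RP, chr3:1891914-1891934, minus strand: caactcttatgctacgcggac
frs12-1 LP, chr5:6331809-6331829, minus strand: attgacatccaattcgacagc
frs12-1 RP, chr5:6330614-6330634, plus strand: gttcttgtgttcgttggcttc
The wild-type products of these pairs span 1191 bp at AHL22, 1140 bp at FRS7 and 1216 bp at FRS12. Both FRS7 primers and the FRS12 LP primer lie in coding exons, the FRS12 RP primer lies in an intron, and the AHL22 pair runs from intergenic sequence into the coding exon.

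The 4 libraries held 12537767 to 14299555 counts, with a read on 20850 to 21317 genes. Across genes, which do not replicate each other, the Pearson correlation of log2(CPM + 1) was 0.995 and 0.996 within the genotypes and 0.989 to 0.990 between them. The ahl22 and ahl22 frs7 frs12 tables each came with a Col-0 pair of their own. The Col-0 pair of the ahl22 table, shared with the frs7 frs12 table, stood apart, at 0.957 to 0.963 with the 4 libraries, whereas the Col-0 libraries counted with ahl22 frs7 frs12 correlated at 0.989 to 0.993 with them. Genotype and table therefore cannot be told apart in this comparison, and the levels in Col-0 of the ahl22 frs7 frs12 table (hereafter Col-0) and in frs7 frs12 are given beside the results. Where it turns a direction, the difference between the mutants after each was set against the Col-0 libraries deposited with it, a comparison added after seeing the data, is given as the within-table difference. It contains the difference between the Col-0 pairs as well as that between the mutants. Of the cell type markers, 10 of 14 shoot genes rose in the triple mutant and 0 fell in edgeR's test and in DESeq2 alike. In edgeR 13.5% of all tested genes rose and 11.2% fell, and 0 shoot genes were lower at an unadjusted p below 0.05. The summed level of the shoot genes was 81856 to 85291 CPM in ahl22 and 113140 to 115596 CPM in ahl22 frs7 frs12. Of 10 tested root markers 0 passed in edgeR's test and 1 had an unadjusted p below 0.05, with 0 of 14 in DESeq2, and their sums were 128 to 142 CPM and 141 to 159 CPM. The root genes MYB72 and RSL4 were at 0 in all 4 libraries. The 13 seed storage and late embryo genes summed to 0.991 and 1.44 CPM in ahl22 and 0.974 and 0.416 CPM in the triple mutant, too few counts to be tested, and CRU2, EM1, SESA3 and SESA5 were at 0 in all 4 libraries. The part of the shoot difference in the results was not tested, and in whole seedlings fewer cells of a type and less RNA per cell cannot be told apart.

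AHL22 (AT2G45430; chromosome 2, 18727504 to 18729272) was low in both groups. Its level was 0.850 and 1.06 CPM in ahl22 and 0.974 and 1.66 CPM in ahl22 frs7 frs12, and the replicates overlapped. Col-0 had 2.99 and 3.02 CPM and frs7 frs12, which carries no ahl22 allele, 1.75 and 1.44 CPM, whereas the Col-0 pair of the ahl22 table had 18.4 and 16.7 CPM. The level of AHL22 in the libraries labelled Col-0 and frs7 frs12 thus does not set them clearly apart from ahl22, and whether they carry a working AHL22 was not tested. FRS12 (AT5G18960; chromosome 5, 6330297 to 6333650) fell from 35.7 and 30.0 CPM in ahl22 to 3.60 and 3.82 CPM, a change of -3.17 on the log2 scale (standard error 0.166, adjusted p = 1.30e-23). All adjusted p values are of edgeR's quasi-likelihood F-test, adjusted after Benjamini and Hochberg. The gene AT5G18970 overlaps it, so reads of both may be counted together. FRS7 (AT3G06250; chromosome 3, 1888834 to 1892830) fell less, from 20.1 and 20.4 CPM to 8.02 and 10.6 CPM (log2 fold change -1.16, standard error 0.157), and -0.97 without ahl22 frs7 frs12 replicate 1. Transcript of FRS7 was thus still counted in the triple mutant.

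Genes with an adjusted p below 0.05 and a change of more than 1 on the log2 scale are termed DEGs, and a gene is said to rise or fall wherever the adjusted p was below 0.05. Of 18572 tested genes, 501 (2.7%) were DEGs, 175 higher (0.942%) and 326 lower (1.76%) in ahl22 frs7 frs12. Without the threshold on the fold change, 2503 genes rose (13.5%) and 2084 fell (11.2%). The number of DEGs was 308 in DESeq2 and ranged from 349 to 566 when a library was left out. The replicates of the groups did not overlap for 500 of the 501 DEGs and for 59.8% of all tested genes. DEGs were unevenly spread along the genome.

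Chromosome 3 carried a long stretch of DEGs around FRS7. Of the tested genes that start in its first 11 Mb, 116 of 2162 were DEGs (5.37%), 34 higher and 82 lower, against 277 of 14491 (1.91%) outside this stretch and that of chromosome 5 described next. The last of them starts at 10073082, no DEG was found among the 101 genes tested from 11 to 16 Mb, across the centromere, and the next starts at 16896166. Beyond it the share was 1.37%. Within 2 Mb of FRS7 the share was 4.26%, against 1.86% within 2 Mb of FRS12 and 2.65% within 2 Mb of AHL22.

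The second stretch ran along chromosome 5 from 17 Mb to the end, far from FRS12. It held 108 DEGs among 1919 tested genes (5.63%), 35 higher and 73 lower. The stretches of chromosomes 3 and 5 hold 11.6% and 10.3% of the tested genes and 23.2% and 21.6% of the DEGs. Leaving out each library left 99 to 127 DEGs on chromosome 3 and 78 to 112 on chromosome 5.

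**Figure D1:**
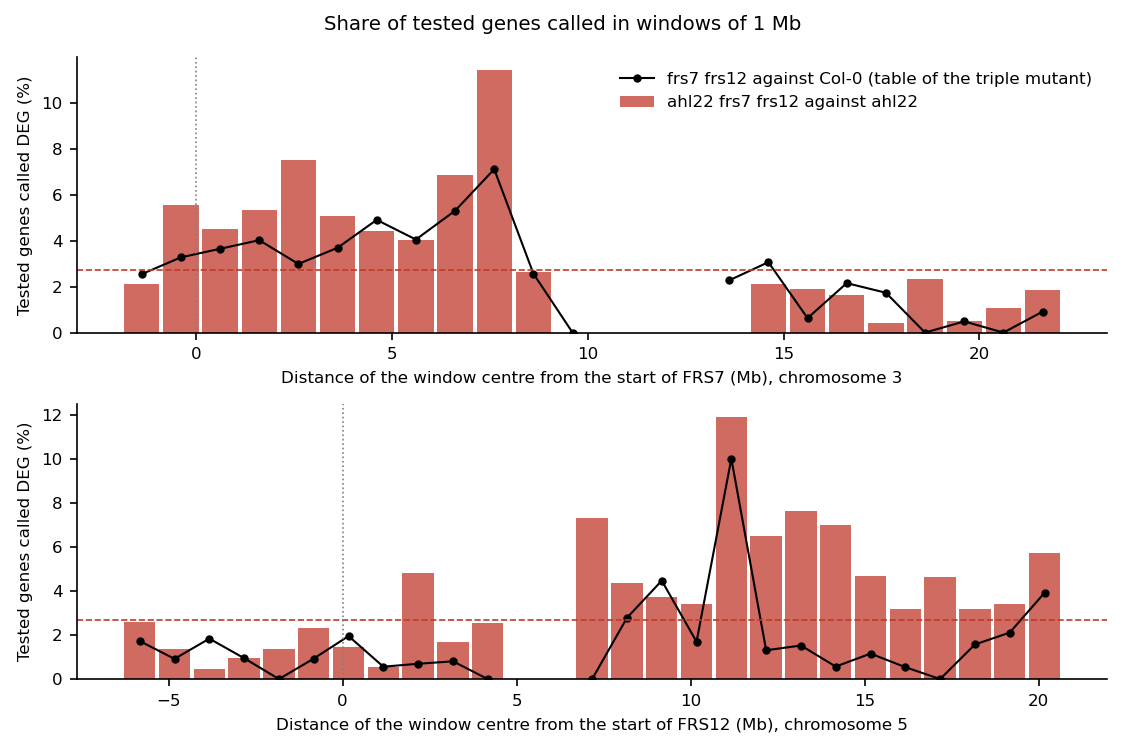
Share of tested genes called DEGs in windows of 1 Mb on chromosomes 3 and 5, by distance from the start of FRS7 or FRS12 in Mb (dotted line); bars show the triple mutant against ahl22, black points frs7 frs12 against Col-0, the dashed line the 2.7% of all genes, and windows with under 20 tested genes are left out. On chromosome 3 bars and points are both raised over the stretch around FRS7, and on chromosome 5 they are raised together at 17 to 18 Mb (11.9% and 10%) but apart beyond it.

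The comparison of the libraries labelled frs7 frs12 with those labelled Col-0 has the same added mutations by its labels, without ahl22-1, and shares no library with the main comparison. AHL22 was low in these libraries too, as given above. It gave 325 DEGs among 18779 tested genes (1.73%), 122 higher (0.65%) and 203 lower (1.08%), and against the other Col-0 pair 3606 DEGs among 19144 genes (18.8%). On the chromosome 3 stretch, 95 of the 112 DEGs tested in both had the same sign there and 52 (46.4%) were also called in that direction, which is 60.5% of the 86 DEGs of frs7 frs12 on the stretch, and 1 was called in the opposite direction. Outside both stretches 135 of 254 had the same sign, 23 were called in the same direction and 17 in the opposite one. Against the other Col-0 pair 173 of 255 had the same sign outside both stretches, and 86 of 110 on the chromosome 3 stretch. Across DEGs, which are not independent of each other, the log2 fold changes of the comparisons correlated at 0.884 on the chromosome 3 stretch (n = 112) and at 0.316 outside both stretches (n = 254).

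On chromosome 5 the comparisons met only in places. From 17 to 18 Mb, 20 of 168 tested genes were DEGs in the triple mutant (11.9%) and 17 of 170 in frs7 frs12 (10%), with 10 called in the same direction. From 18 to 26 Mb the triple mutant had 75 DEGs among 1524 genes (4.92%) and frs7 frs12 17 among 1531 (1.11%), and 2 were shared with their direction. For 47 of these 75 the effects of frs7 frs12 in the main comparison and in frs7 frs12 against Col-0 differed in the interaction test. It was called at an adjusted p below 0.05 and a difference above 1 on the log2 scale, and for 51 with the other Col-0 pair. The share was 3.02% of all 19121 genes tested for it, but 165 of all 501 DEGs (32.9%) and 94 of 277 outside both stretches (33.9%). The interaction contains the difference by which DEGs were chosen, so these calls are not independent evidence. frs7 frs12 had a stretch of its own on chromosome 2 from 1 to 2 Mb, with 16 DEGs among 100 genes, where the triple mutant had 1 among 101. On the chromosome 3 stretch, sequence inherited with frs7-1 from its accession and the loss of FRS7 cannot be told apart.

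**Figure D2:**
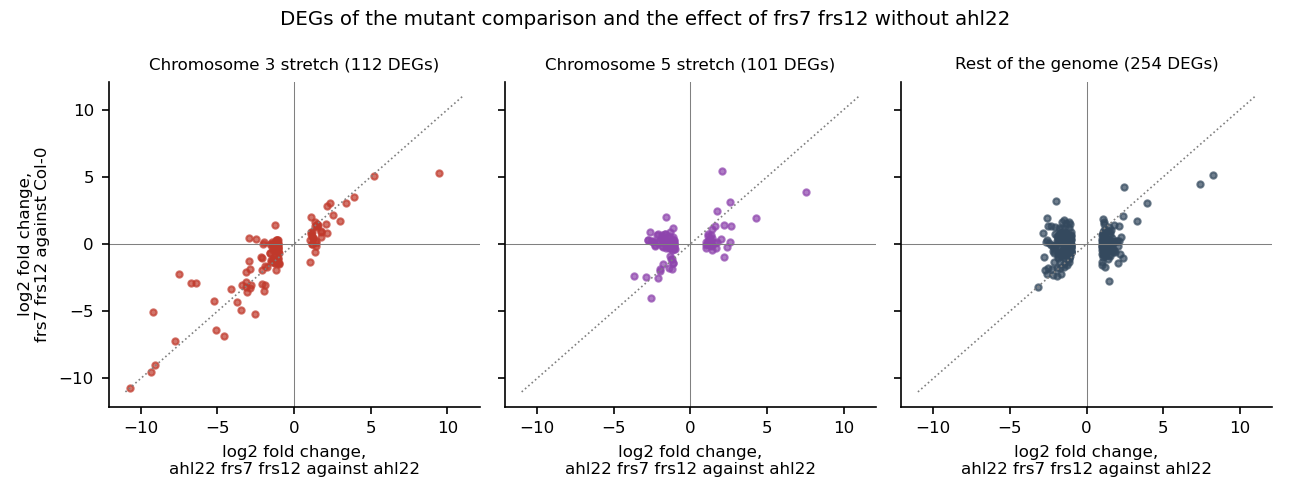
Each point is a DEG of ahl22 frs7 frs12 against ahl22, with its log2 fold change there on the x axis and in frs7 frs12 against Col-0 on the y axis; the dotted line marks equal values. Points of the chromosome 3 stretch lie mostly near that line (correlation 0.884), those outside both stretches mostly near a y value of 0 (correlation 0.316).

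The genes with the largest falls were nearly all on the chromosome 3 stretch. Apart from COR15B and FRS12, the other 10 of the 12 genes with the largest falls, by the rule for named genes, lie there. AT3G18535, annotated as a tubulin-tyrosine ligase (chromosome 3, 6375269 to 6377625), had 15.3 and 14.3 CPM in ahl22 and no count in ahl22 frs7 frs12, at least 125-fold lower when 3 counts over the group are taken as the floor. It had no count in frs7 frs12 either, and 13.5 and 14.5 CPM in Col-0. AT3G21950, annotated as a methyltransferase (7734219 to 7736493), had 5.95 and 5.32 CPM in ahl22 and was at least 47.5-fold lower, the F-box gene AT3G18320 at least 43.8-fold and the uncharacterized AT3G13240 at least 40.5-fold lower, all with no count in the triple mutant.

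JAL33 (AT3G16450; 5588292 to 5590085), a jacalin-like lectin, fell from 90.8 and 80.8 CPM to 2.40 and 2.83 CPM (log2 fold change -5.07, standard error 0.134, edgeR's adjusted p = 1.11e-37), the smallest adjusted p of all named genes. In frs7 frs12 it was likewise at 2.74 and 1.72 CPM, against 219 and 140.3 CPM in Col-0. Receptor-like protein genes of the stretch fell too. RLP42, known as the receptor for fungal endopolygalacturonases, fell from 9.84 and 13.5 CPM to 0.525 and 0.0831 CPM, and RLP34 from 4.74 and 4.89 CPM to 0.300 and 0.582 CPM. RLP40 had 1 count in the triple mutant, a ratio of 99.5 (95% exact interval 17.5 to 3962 for counting error). GSTU8, a glutathione transferase, fell from 8.64 and 7.95 CPM to 0.375 and 0.915 CPM, and AT3G09160, which encodes an RNA-binding protein, from 3.40 and 4.38 CPM to 0.150 and 0.166 CPM. All of these genes were also called lower in frs7 frs12 against Col-0. AT3G18535, AT3G18320 and RLP42 share a near-identical sequence with another gene, and AT3G18535, RLP40, AT3G09160 and RLP34 overlap another gene, so their counts are uncertain to that extent.

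Of the 12 genes with the largest rise, 6 lie on the chromosome 3 stretch and 4 on that of chromosome 5. AT3G25719 (9379916 to 9380152) had no count in ahl22 and 6.15 and 6.74 CPM in the triple mutant, at least 64.4-fold higher. The ABC transporter-like gene AT3G21080 rose from 1.70 and 0.689 CPM to 17.5 and 18.7 CPM, and AT3G05150, a sugar-transporter-like gene of the major facilitator superfamily, from 4.67 and 8.39 CPM to 28.9 and 30.2 CPM. CLE27, which encodes a secreted peptide of the CLAVATA3 family, rose from 0.566 and 0.814 CPM to 3.37 and 3.99 CPM. ILR2, known for resistance to an auxin conjugate, rose from 0.425 and 0.438 CPM to 4.87 and 4.49 CPM. These 5 genes were also called higher in frs7 frs12, which AT3G12040 (log2 fold change 2.12 in the triple mutant), a DNA glycosylase gene that overlaps AT3G12020, was not.

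Among the 4 genes on chromosome 5, AT5G44568 at 17 to 18 Mb rose from 4.18 and 2.88 CPM to 18.1 and 15.2 CPM, and had 12.9 CPM in both frs7 frs12 libraries. The other 3 lie beyond 18 Mb, and in frs7 frs12 AT5G47250 and AT5G59680 were not called while AT5G55570 had too few counts to be tested. AT5G47250 (19185698 to 19188885), an immune receptor gene of the NB-ARC and LRR type, rose from 1.98 and 1.19 CPM to 9.97 and 9.81 CPM, while frs7 frs12 had 2.28 and 1.39 CPM and Col-0 1.53 and 1.77 CPM. AT5G55570, which overlaps AT5G55580, rose from 0.496 and 0.188 CPM to 8.32 and 8.73 CPM, and the receptor kinase gene AT5G59680 from 0.496 and 0.814 CPM to 4.95 and 3.58 CPM. For AT5G59680 frs7 frs12 had 3.73 and 2.11 CPM, overlapping the triple mutant, and Col-0 0.835 and 1.44 CPM. The Col-0 pair of the ahl22 table had 5.27 and 4.94 CPM of it. The pectin acetylesterase gene AT5G45280 (18345534 to 18349695), which had the smallest adjusted p on this stretch after LTI78, rose from 30.9 and 26.1 CPM to 95.9 and 98.8 CPM, against 33.6 and 30.5 CPM in frs7 frs12. For AT5G45280, AT5G47250 and AT5G55570 the triple mutant stood above the ahl22, frs7 frs12 and Col-0 libraries. The third of the stretch by adjusted p, AT5G44580, of uncharacterized function, fell from 119 and 117 CPM to 51.9 and 52.9 CPM, with 43.5 and 40.4 CPM in frs7 frs12 and 147 and 149.7 CPM in Col-0.

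The remaining 2 genes with the largest rise, AT1G35320 and AT1G50290, lie on chromosome 1 and encode uncharacterized proteins. AT1G35320 (12958841 to 12962853) had 2.41 and 1.50 CPM in ahl22 and 30.7 and 29.4 CPM in ahl22 frs7 frs12 (log2 fold change 3.93, standard error 0.193, edgeR's adjusted p = 7.89e-25), with 26.9 and 26.1 CPM in frs7 frs12 and 3.41 and 3.08 CPM in Col-0. AT1G50290 (18627551 to 18628452) had 6.51 and 6.64 CPM in ahl22 and 36.8 and 33.3 CPM in the triple mutant, with 41.1 and 29.2 CPM in frs7 frs12 and 7.65 and 8.59 CPM in Col-0. Both were therefore high in the 4 libraries that carry frs7 and frs12 and low in those that do not.

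**Figure D3:**
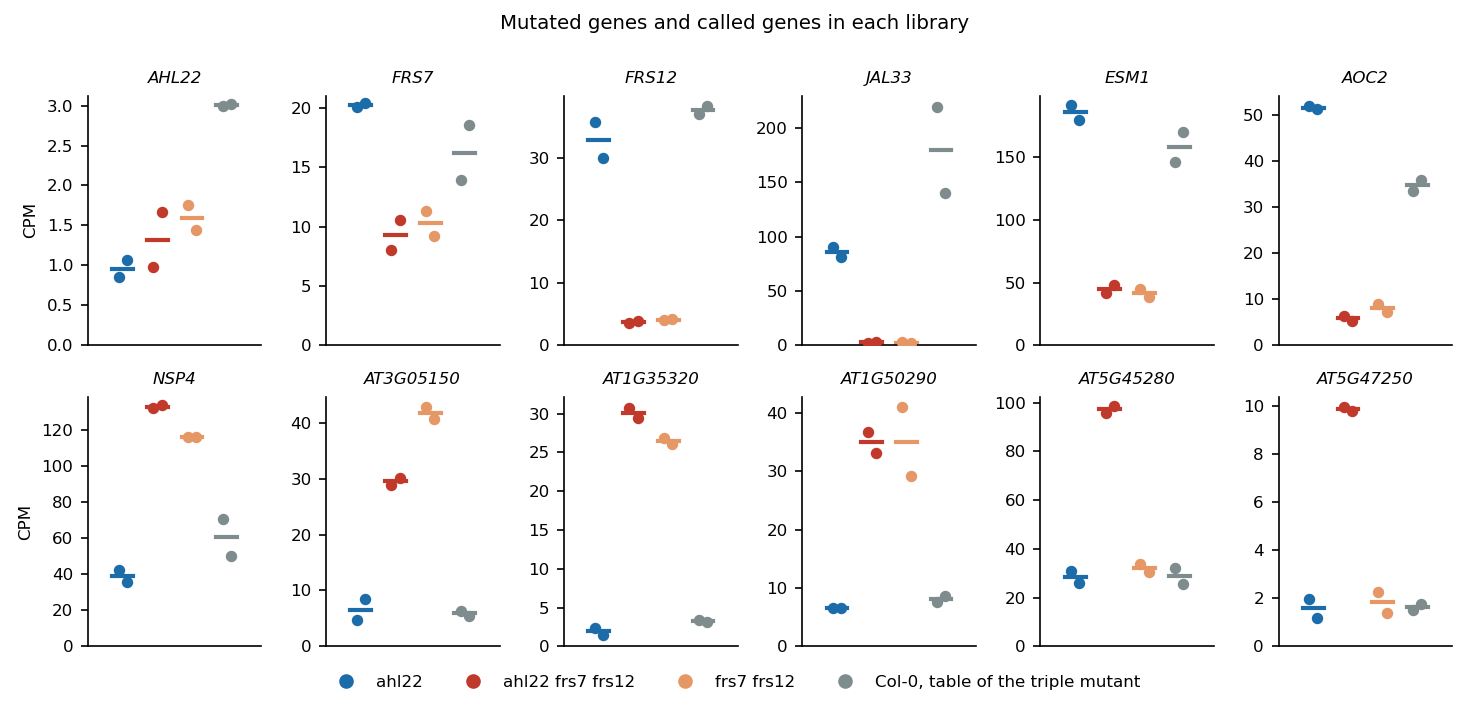
Level in CPM (y axes from 0) of the 3 mutated genes and 9 called genes in each library (points) and the mean of each group of 2 (lines). JAL33, ESM1 and AOC2 are low, and NSP4, AT3G05150, AT1G35320 and AT1G50290 high, in both genotypes with frs7 and frs12, while AT5G45280 and AT5G47250 are high in the triple mutant alone among the 4 genotypes drawn.

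Both glucosinolate breakdown and jasmonate synthesis, enzyme groups of defence chemistry, had their strongest members on the chromosome 3 stretch. Genes of glucosinolate breakdown act when the mustard oils are released from glucosinolates in damaged tissue. Of 13 tested, 4 rose and 4 fell (30.8% each, against 13.5% and 11.2% of all tested genes). Their median log2 fold change was -0.05, against -0.01 for all tested genes. ESM1 (AT3G14210; 4729399 to 4731847), which favours isothiocyanate over nitrile formation, fell from 192 and 180.1 CPM to 41.6 and 47.7 CPM (log2 fold change -2.09, standard error 0.0675, edgeR's adjusted p = 2.64e-33). NSP4 (AT3G16410), a nitrile specifier protein, rose from 42.3 and 35.9 CPM to 132 and 134 CPM, and part of its sequence is near-identical to that of NSP1. The replicates of the groups did not overlap for either gene, as for 59.8% of all tested genes. In frs7 frs12 ESM1 was at 44.8 and 38.1 CPM, and NSP4 at 116 CPM in both libraries. Of the aliphatic glucosinolate genes 8 of 27 rose and 2 fell with no DEG (29.6% and 7.41%, against 13.5% and 11.2% of all tested genes), but 2 rose and 2 fell without ahl22 replicate 2, 4 and 4 without ahl22 frs7 frs12 replicate 2, and by the within-table difference 1 was higher and 18 lower. The 2 with the highest level were GSTU20 (0.20 on the log2 scale, edgeR's adjusted p = 0.00492, within-table difference -1.67) and BCAT3 (0.13, adjusted p = 0.118), which act in glucosinolate synthesis. Of the indole glucosinolate genes 4 of 17 rose and 1 fell (23.5% and 5.88%), and 1 rose and 1 fell without ahl22 replicate 2 or without ahl22 frs7 frs12 replicate 2. IGMT2, a methyltransferase gene of this pathway with near-identical sequence in IGMT3, had a log2 fold change of 1.23 and was no longer called without those libraries (edgeR's adjusted p = 0.0622 and 0.0675). CYP81F2, which modifies indole glucosinolates, was at 4.60 and 3.26 CPM in ahl22 and 7.12 and 12.7 CPM in the triple mutant, a log2 fold change of 1.31 that was 0.84 without ahl22 frs7 frs12 replicate 2.

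Of the jasmonate genes 4 of 30 rose and 6 fell (13.3% and 20%, against 13.5% and 11.2% of all tested genes, median -0.06), and without ahl22 replicate 2 the numbers were 4 and 2, with 4 and 1 in DESeq2. By the within-table difference 10 jasmonate genes were higher and 5 lower, with a median of 0.34. The single DEG of the list was AOC2 (AT3G25770; 9406669 to 9408071), for an allene oxide cyclase, which closes the ring of the jasmonate precursor. It fell from 52.0 and 51.4 CPM to 6.45 and 5.32 CPM (log2 fold change -3.16, standard error 0.131, edgeR's adjusted p = 3.34e-28), and frs7 frs12 had 8.91 and 7.28 CPM. AOC1, its neighbour on the chromosome, chosen after its values had been seen, rose from 14.6 and 13.8 CPM to 26.8 and 24.8 CPM. The cytochrome P450 gene CYP71B26, close by (9632608 to 9634822), fell from 68.5 and 70.2 CPM to 8.39 and 10.7 CPM, and Col-0 had 47.5 and 46.6 CPM.

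Genes of the cold response fell, most of them outside these stretches. CBF transcription factors bind the CRT/DRE element of COR, KIN and LTI genes, whose products protect cells from freezing and drying, and the CBF genes are also gated by the clock. Of 13 tested genes on the list, 10 fell, none rose and 9 were DEGs (median log2 fold change -1.72), against 11.2% lower among all tested genes, and DESeq2 also gave 10 lower and 0 higher. In edgeR's test 0 members had an unadjusted p below 0.05 with a higher level. With at least 10 counts required in each library, 8 were tested and 6 fell. On the stretches lie 3 of the 13, LTI78 among them.

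DREB1A (CBF3; AT4G25480) fell from 11.3 and 11.6 CPM to 1.80 and 2.33 CPM, CBF2 (AT4G25470) from 22.2 and 22.8 CPM to 6.30 and 9.23 CPM, and CBF1 (AT4G25490) from 2.83 and 3.44 CPM to 0.300 and 1.33 CPM. The targets fell with them. LTI78, also called RD29A, fell from 75.1 and 82.6 CPM to 14.9 and 11.2 CPM (log2 fold change -2.62, standard error 0.105, edgeR's adjusted p = 6.42e-29). KIN2 fell from 132 and 119 CPM to 42.8 and 34.5 CPM, and COR47, a dehydrin gene, from 262 and 269 CPM to 132 and 135 CPM (log2 fold change -1.02, and -0.996 without ahl22 replicate 2). COR15A, for a chloroplast protein that protects membranes, fell from 4.67 and 3.57 CPM to 0.974 and 0.665 CPM, and its neighbour COR15B to 2 counts in the triple mutant, a ratio of 55.2 (95% exact interval 15.0 to 461 for counting error). COR15B overlaps AT2G42520 and DREB1A overlaps AT4G07385. No replicates of the cold genes named here overlapped between the groups, as for 500 of all 501 DEGs and 59.8% of all tested genes. KIN1 fell from 2.62 and 2.13 CPM to 0.600 and 0.499 CPM, and its adjusted p was 0.0588 in edgeR's test without ahl22 replicate 1.

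The levels in the triple mutant were nearer to those of Col-0 than those of ahl22 were. The Col-0 pair of the ahl22 table was near ahl22 in the summed level, most of which was COR47. For every other cold DEG that pair was below ahl22. It had 0.427 and 0.243 CPM of DREB1A, 4.63 and 3.81 CPM of CBF2, 76.6 and 63.4 CPM of KIN2, and 39.7 and 42.2 CPM of LTI78. The list summed to 572.6 and 570 CPM in ahl22, 236 and 231 CPM in the triple mutant, 311 and 191 CPM in Col-0 and, in the Col-0 pair deposited with ahl22, 525 and 551 CPM. That pair had 338 and 371 CPM of COR47, more than ahl22. By the within-table difference 6 of the 13 were lower and 1, COR47 (0.41), higher. For 12 of the 13 cold genes the mean level of Col-0 was nearer to ahl22 frs7 frs12 than to ahl22. Col-0 had 1.39 and 2.16 CPM of DREB1A, 49.6 and 40.8 CPM of KIN2, and unequal levels of 41.0 and 7.15 CPM of LTI78. In frs7 frs12 against Col-0 the sign was the opposite, with 5 of 12 tested members rising and none falling (median 0.82), where 3.18% of all tested genes rose and 6.76% changed. For 7 of 13 the interaction was called, against 3.02% of all genes tested for it and 32.9% of all 501 DEGs. For KIN2 it was -2.46 (standard error 0.147, edgeR's adjusted p = 7.12e-11). COR47, at -1.93, was no longer called with the other Col-0 pair (-0.46).

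Clock genes differed between the mutants as well. The direct comparison uses no Col-0 library, and its direction is given here beside that of the within-table difference. The plant clock is a loop of repressors in which CCA1 and LHY peak at dawn, the PRR genes follow in turn through the day, and the evening genes are repressed by CCA1 and LHY at the evening element. Of 14 tested morning genes 7 rose and 3 fell (50% and 21.4%, median 0.31), and of 12 evening genes 1 rose and 6 fell (8.33% and 50%, median -0.67), where 13.5% of all tested genes rose and 11.2% fell. The within-table difference turned this, with 1 morning gene higher and 7 lower and 4 evening genes higher. LHY (AT1G01060) rose from 7.65 and 9.39 CPM to 23.1 and 22.9 CPM (log2 fold change 1.40, standard error 0.153, edgeR's adjusted p = 6.06e-11). PRR5 (AT5G24470), a repressor of CCA1 and LHY, fell from 28.7 and 28.2 CPM to 5.70 and 5.90 CPM (log2 fold change -2.32, standard error 0.155, edgeR's adjusted p = 5.15e-19). FKF1 (AT1G68050), the blue-light receptor of the daylength response, which overlaps AT1G68060, fell from 8.85 and 8.14 CPM to 0.899 and 2.00 CPM. The within-table difference was -1.09 for LHY (edgeR's adjusted p = 0.00104), 0.73 for PRR5 (adjusted p = 0.0127) and 0.79 for FKF1, which did not pass, so that each had the opposite sign.

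The other called clock genes were close to the threshold. PRR9 fell from 25.3 and 29.4 CPM to 12.3 and 13.9 CPM (log2 fold change -1.10, and -0.98 without ahl22 replicate 2). EPR1, a relative of LHY, fell from 46.3 and 47.5 CPM to 25.3 and 21.9 CPM (log2 fold change -1.02, -0.99 without ahl22 replicate 2 and -0.92 without ahl22 frs7 frs12 replicate 2). PRR9 and EPR1 have near-identical sequence in other genes. Of the members that were not DEGs, chosen after their values had been seen, CCA1 rose by 0.72 and RVE8 by 0.88 on the log2 scale, whereas GI fell by 0.63 and TOC1 fell by 0.71.

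For LHY and PRR5 Col-0 was at the level of the triple mutant. LHY was at 27.2 and 22.3 CPM and PRR5 at 5.63 and 6.17 CPM in Col-0, each overlapping the triple mutant, and frs7 frs12 at 10.8 and 11.9 CPM of LHY and 14.2 and 16.3 CPM of PRR5 lay between the others. For EPR1 Col-0, at 33.6 and 35.2 CPM, was nearer to ahl22. The Col-0 pair of the ahl22 table lay at the other end of LHY and PRR5, with 4.49 and 4.30 CPM of LHY and 43.2 and 54.6 CPM of PRR5. For 11 of 14 morning and 9 of 12 evening genes the mean of Col-0 was nearer to the triple mutant than to ahl22. Genotype and table cannot be told apart for these genes, and the part of the hour of harvest was not tested.

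**Figure D4:**
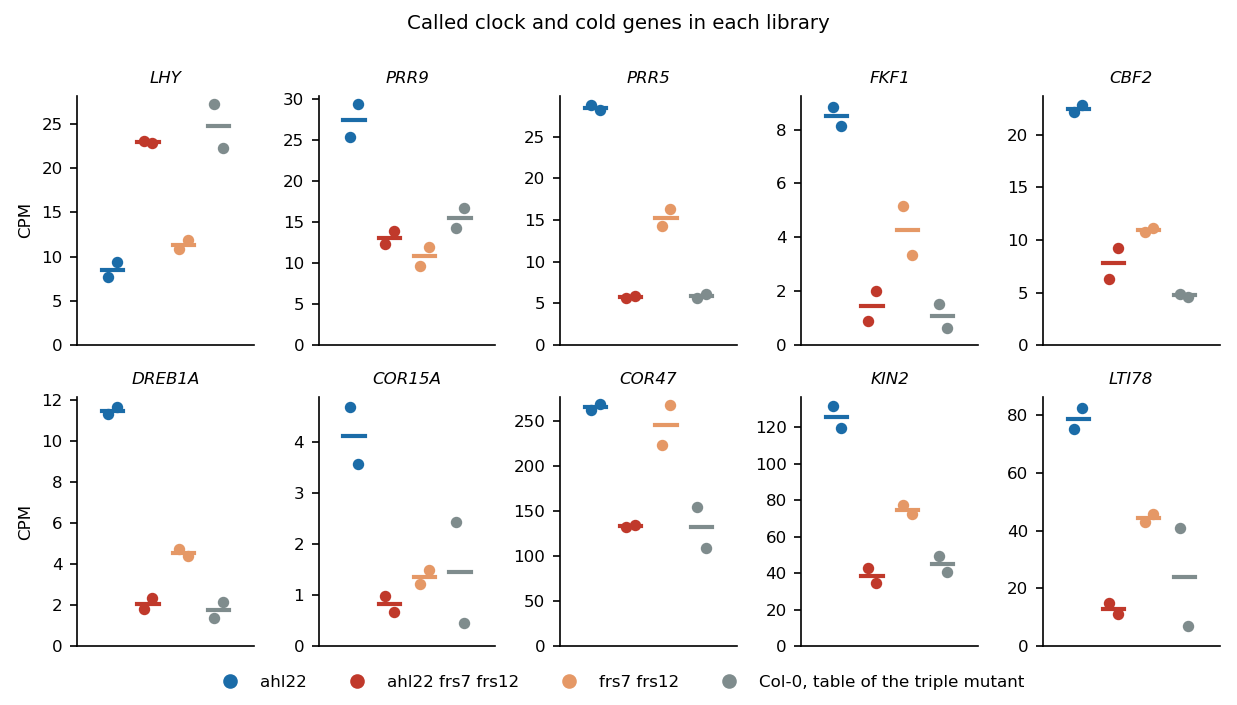
Level in CPM (y axes from 0) of 4 called clock genes and 6 called cold genes in each library (points), with the mean of each group of 2 (lines). In LHY, PRR5, FKF1, CBF2, DREB1A, COR47 and KIN2 the triple mutant is near Col-0, ahl22 lies away from both and the mean of frs7 frs12 lies between, while the Col-0 libraries of COR15A and LTI78 differ widely from each other.

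The upstream sequences of 4 of these genes are shown because they carry the elements that the clock and CBF factors are known to bind. Each is the 250 bases before the annotated start in the Col-0 reference (TAIR10.1, RefSeq), 5′ to 3′ on the strand of the gene. Capitals mark the evening element AAAATATCT, the CRT/DRE core CCGAC and the G-box CACGTG on either strand.
PRR5, chr5:8358547-8358796, minus strand: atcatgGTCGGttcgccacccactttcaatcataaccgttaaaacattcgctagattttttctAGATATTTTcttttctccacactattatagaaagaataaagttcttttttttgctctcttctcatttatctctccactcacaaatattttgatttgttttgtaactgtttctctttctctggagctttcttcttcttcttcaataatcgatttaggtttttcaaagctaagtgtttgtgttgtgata
FKF1, chr1:25508389-25508638, plus strand: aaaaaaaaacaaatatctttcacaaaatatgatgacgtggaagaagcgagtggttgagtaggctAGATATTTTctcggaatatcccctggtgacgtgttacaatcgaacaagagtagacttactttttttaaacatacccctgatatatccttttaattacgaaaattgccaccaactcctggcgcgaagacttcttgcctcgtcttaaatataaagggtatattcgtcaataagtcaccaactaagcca
LTI78, chr5:21240467-21240716, plus strand: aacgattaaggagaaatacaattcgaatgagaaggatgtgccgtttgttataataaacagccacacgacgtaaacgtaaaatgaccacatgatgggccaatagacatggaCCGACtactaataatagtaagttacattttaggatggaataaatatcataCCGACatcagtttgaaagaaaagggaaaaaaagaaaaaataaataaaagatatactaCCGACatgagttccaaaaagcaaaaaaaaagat
COR15A, chr2:17712331-17712580, minus strand: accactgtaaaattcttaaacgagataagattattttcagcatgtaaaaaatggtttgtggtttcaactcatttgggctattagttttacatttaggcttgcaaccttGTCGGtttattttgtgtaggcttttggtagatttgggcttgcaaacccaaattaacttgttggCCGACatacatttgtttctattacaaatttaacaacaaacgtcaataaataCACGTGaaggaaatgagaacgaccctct
The evening element, searched on both strands, was in 20 of 168 such windows of lower DEGs outside the stretches (11.9%), in 2 of 104 of higher DEGs outside them (1.92%), and in 473 of 18379 windows of all tested protein-coding genes (2.57%). In the evening clock list it was in 5 of 12. The CRT/DRE core was in 13.1% of the lower DEGs outside the stretches and in 12.9% of all windows, and in 4 of 13 of the cold list. The windows of COR47, COR15B, KIN1 and KIN2 held none. The G-box was in 7 of 14 of the morning clock list and in 7.33% of all windows. CACGCGC, the motif known for FHY3 and FAR1, was in 0 of 168 windows of lower and 1 of 104 of higher DEGs outside the stretches, against 1.37% of all. These matches are letters in a window and not measured sites.

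Auxin and growth genes, which the study follows, held few DEGs. Of the 31 genes of the auxin heat map in the study, a list chosen on these samples, 9 rose and 4 fell (29.0% and 12.9%, against 13.5% and 11.2% of all tested genes, median 0.22), 5 and 2 without ahl22 replicate 2 and in DESeq2, and 1 and 23 by the within-table difference. The DEGs were the clock gene LHY and the SAUR gene AT4G34810. AT4G34810 had 0.354 and 0.814 CPM in ahl22 and 2.85 and 2.58 CPM in the triple mutant, with an adjusted p of 0.0586 in edgeR's test without ahl22 replicate 1. In the SAUR family, small auxin-induced genes of elongating tissue, 8 of 57 tested rose and 7 fell (14.0% and 12.3%, median 0.05), shares near those of all tested genes, and 3 rose and 2 fell without ahl22 replicate 2 or in DESeq2. By the within-table difference 2 were higher and 31 lower. The family summed to 704 and 689 CPM in ahl22 and 726 and 738 CPM in the triple mutant. The sums were 795 and 768 CPM in Col-0, and 369 and 358 CPM in the Col-0 pair of the ahl22 table. The SAUR genes AT2G35290 (log2 fold change -1.48) and AT2G36210 (1.19) were DEGs that missed the threshold in DESeq2 and in 4 and 3 of the 4 fits without a library. Of the genes annotated as Aux/IAA, which hold auxin repressors, 3 of 26 rose and 8 fell (11.5% and 30.8%). IAA10, which overlaps AT1G04105, had a log2 fold change of 1.17 (edgeR's adjusted p = 0.0234), and was not called in DESeq2 (adjusted p = 0.15) or in edgeR without ahl22 replicate 2 (adjusted p = 0.404) or ahl22 frs7 frs12 replicate 2 (adjusted p = 0.0856). IAA1 fell from 12.8 and 13.0 CPM to 6.00 and 6.07 CPM (log2 fold change -1.13), with 4.49 and 9.00 CPM in frs7 frs12. In the GH3 family, which conjugates auxin, 2 of 10 rose and 3 fell, with BRU6 as the DEG (log2 fold change -1.07, -0.91 without ahl22 replicate 1, -0.999 without ahl22 frs7 frs12 replicate 1 and a within-table difference of 0.21). By the within-table difference 2 GH3 genes were higher and 1 lower. Of the auxin synthesis and transport genes 2 of 18 rose and 1 fell, and the 2 with the highest level, the auxin exporters ABCB19 and PIN7, had log2 fold changes of -0.14 (edgeR's adjusted p = 0.0442) and -0.02 (adjusted p = 0.836).

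Cell wall genes of growth rose more often than they fell, 8 of 15 against 2 (53.3% and 13.3%, median 0.19). Of all tested genes 13.5% rose and 11.2% fell. By the within-table difference 5 of the wall genes were higher and 5 lower, and the single DEG of this list was lower. XTH15, a xyloglucan-modifying enzyme that overlaps AT4G14120, fell from 57.1 and 51.7 CPM to 24.1 and 30.8 CPM, with a log2 fold change of -1.02 that was -0.95 without ahl22 replicate 1 and -0.85 without ahl22 frs7 frs12 replicate 1, with a within-table difference of 0.07. Of the PIF and shade genes 5 of 26 rose and 5 fell (19.2% each). IBH1, a helix-loop-helix protein that inhibits cell elongation, rose from 16.4 and 15.4 CPM to 32.3 and 36.9 CPM (log2 fold change 1.09, and 0.998 without ahl22 frs7 frs12 replicate 2), and was at 33.0 and 35.2 CPM in frs7 frs12. In the FHY3 and FAR1 family 1 of 14 rose and 4 fell (7.14% and 28.6%), FRS7 and FRS12 among the latter. Among the AHL genes 2 of 28 rose and 1 fell (7.14% and 3.57%), both below the shares of all tested genes, with no DEG. Of the flowering genes 2 of 22 rose and 7 fell (9.09% and 31.8%, median -0.36). SPL3, a promoter of flowering, was the single DEG (log2 fold change -1.34). SPL3 overlaps AT2G33815, and its adjusted p was 0.0879 in DESeq2, and in edgeR 0.199 without ahl22 replicate 1 and 0.103 without ahl22 frs7 frs12 replicate 2.

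**Figure D5:**
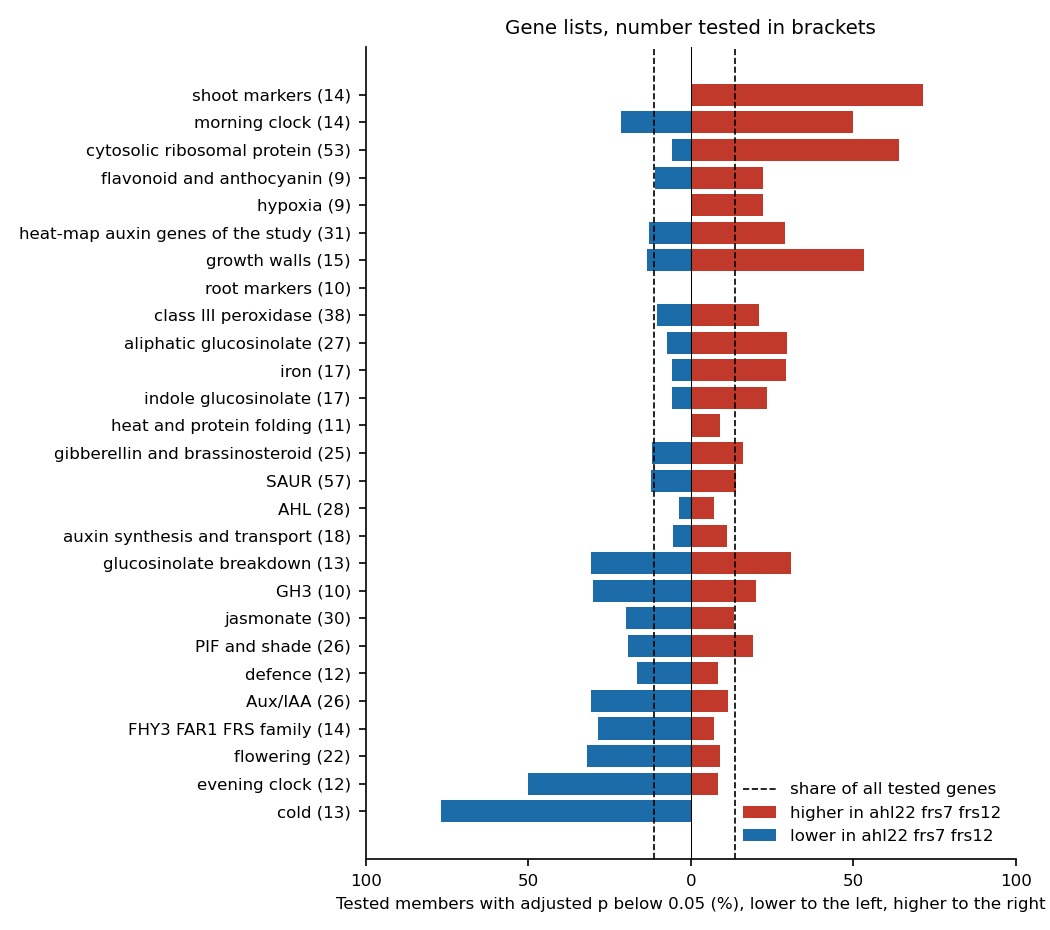
Share of the tested members of each gene list with an adjusted p below 0.05, lower to the left and higher to the right; dashed lines mark the shares of all tested genes, 11.2% lower and 13.5% higher, and numbers tested stand in brackets. The cold list reaches 76.9% lower, and the shoot markers and cytosolic ribosomal proteins 71.4% and 64.2% higher.

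Genes of photosynthesis and of protein synthesis rose by small amounts in many members. Of 53 tested genes annotated as cytosolic ribosomal proteins 34 rose and 3 fell (64.2% and 5.66%, median 0.29). The shares of all tested genes were 13.5% and 11.2%. By the within-table difference, however, 5 of the 53 were higher and 28 lower. The lower DEGs AT5G02440 and AT5G47940 had at most 7.70 CPM. Among the shoot markers RBCS1A, for the small subunit of Rubisco, rose from 10412 and 10065 CPM to 16045 and 16159 CPM (log2 fold change 0.62). CAB1, for an antenna protein, which has near-identical copies in CAB2 and CAB3 and overlaps AT1G29940, had a log2 fold change of 0.26. Col-0 and frs7 frs12 lay between for RBCS1A, at 13141 to 13580.4 CPM and 12275 to 12853 CPM. The iron list had 5 of 17 higher and 1 lower (29.4% and 5.88%). MYB10, a regulator of the root iron response on the chromosome 3 stretch, which overlaps AT3G12810, fell from 3.47 and 3.26 CPM to 0.600 and 0.249 CPM, whereas AT1G47395 and AT1G47400, genes of short peptides of the iron response, rose with log2 fold changes of 1.16 and 1.31. The change of AT1G47395 was 0.99 without ahl22 frs7 frs12 replicate 1, and that of AT1G47400 was 0.99 without ahl22 replicate 1 (edgeR's adjusted p = 0.201).

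The remaining lists had few called members, where 13.5% of all tested genes rose and 11.2% fell. Of the gibberellin and brassinosteroid genes 4 of 25 rose and 3 fell, 4 and 0 without ahl22 replicate 1 and 2 and 0 in DESeq2, with GA2OX8, which inactivates gibberellin, as the DEG (log2 fold change -1.59, with an adjusted p of 0.0654 to 0.339 in edgeR's test when any library was left out). Class III peroxidases, which act on the cell wall, had 8 of 38 higher and 4 lower (21.1% and 10.5%), and 2 and 2 without ahl22 replicate 2 or in DESeq2. Of their 4 DEGs, AT3G21770 on the chromosome 3 stretch had a log2 fold change of 1.42, while AT2G41480 (1.51), AT4G36430 (1.02) and AT4G37530 (-1.01) were not called in DESeq2 and missed the threshold in 4, 3 and 2 of the 4 fits without a library. Of 12 tested defence genes 1 rose and 2 fell, with PAD3, the last enzyme of camalexin synthesis, at -1.58, which missed the threshold without ahl22 replicate 1, ahl22 replicate 2 or ahl22 frs7 frs12 replicate 1 (adjusted p = 0.101, 0.386 and 0.187 in edgeR's test). Of 9 hypoxia genes 2 rose and 0 fell in edgeR's test, 0 of them lower also at an unadjusted p below 0.05 and 0 of 10 lower in DESeq2, with AT5G15120, a plant cysteine oxidase gene, at 1.19. Its adjusted p in edgeR's test was 0.0784 to 0.235 when any library was left out. The flavonoid and anthocyanin genes (2 of 9 higher, 1 lower) and the heat and protein folding genes (1 of 11 higher, 0 lower, 1 lower at an unadjusted p below 0.05, and 1 higher and 0 lower in DESeq2) held no DEG.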

How the data were processed

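RNA-seq counts per gene were taken from the tables that the authors deposited, whose values are raw read counts. Per the labels and the study's methods, HISAT2 (TAIR10) was the authors' aligner and Subread their counter, and whether the counting used strand is not given in the sources used here. The ahl22 and ahl22 frs7 frs12 columns came from separate tables and were joined by gene identifier (27416 genes, 26719 matched to the TAIR10.1 RefSeq annotation). The Col-0 columns of the ahl22 frs7 frs12 table carry no replicate number that ties them to one labelled sample and were used as a group.

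Genes were filtered with filterByExpr, normalized by TMM and tested with edgeR 4.0.16 (R 4.3.3), by quasi-likelihood F-tests whose p-values were adjusted (Benjamini-Hochberg) across all tested genes, in a fit of the 4 libraries (biological coefficient of variation 0.0626). Levels are given in CPM, with library sizes scaled by TMM over all 12 libraries. Separate fits gave frs7 frs12 against each Col-0 pair and the interaction of frs7 frs12 with ahl22. With 2 libraries a group no exact test of a single value can pass the threshold, so only fits across all genes were tested. In simulated counts edgeR recovered 100 of 100 genes changed by 1.5 on the log2 scale, with 0 false calls among 18524 genes tested. The simulation changed only genes with a mean of at least 50 counts and gave all genes the same dispersion. It therefore does not speak for genes with fewer counts or for false calls in the real libraries.

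The members and lists were chosen with earlier results of these data known. Named genes were the mutated genes, the 12 DEGs that rose most and the 12 that fell most among those whose replicates did not overlap and whose higher group had a mean of at least 50 normalized counts, DEGs of the lists, the 2 genes of highest CPM in lists without a DEG, and the 3 DEGs of smallest adjusted p on each stretch. Other clock genes and AOC1 were added after their values had been seen, as were the stretches' limits. Near-identical sequence means at least 150 nt at 95% identity (blastn 2.17.0). A Col-0 mean was called nearer to the group from which it differed less on the log2(CPM + 0.1) scale. Intervals and floors (3 counts) cover counting error only. Alternatives were DESeq2 1.42.0, RLE and upper-quartile normalization, other filters, glmTreat, a replicate block, all libraries in 1 fit and leaving out each library. The nuclear matrix DNA samples of the series and hda15 were not analysed here, except that hda15 entered the scaling and the fit of all libraries.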

Additional observations from a re-analysis of the deposited data

Results flagged for a closer look

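The difference between the triple mutant and ahl22 was compared with that between the libraries labelled frs7 frs12 and Col-0 for all 82 named genes, by the interaction in edgeR with adjustment over all genes tested. For 24 it passed, at an adjusted p below 0.05 with a difference of more than 1 on the log2 scale. Of these, 9 were above 0 and 15 below 0, and in 16 the effects had opposite signs. The interaction was called for 3.02% of all genes tested for it and for 165 of all 501 DEGs (32.9%). Of the named genes 67 are DEGs, chosen by a difference that the interaction contains, so these calls are not independent evidence. With the other Col-0 pair 16 of the 24 were still called and 8 were not. Table and genotype cannot be told apart. AHL22 was at 1.75 and 1.44 CPM in frs7 frs12, at 0.974 and 1.66 CPM in the triple mutant and at 2.99 and 3.02 CPM in this Col-0, whereas the other Col-0 pair had 18.4 and 16.7 CPM, so its level does not separate the libraries labelled with and without ahl22, and their identity was not tested.

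Clock and cold genes made up the largest group. The interaction was 2.51 for LHY, -3.71 for PRR5 and -4.55 for FKF1, and with the other Col-0 pair 0.06 for LHY (edgeR's adjusted p = 0.879), -0.62 for PRR5, both no longer called, and -1.12 for FKF1. Among the cold genes it was -1.93 for COR47, -2.46 for KIN2, -2.79 for CBF2, -3.52 for LTI78, -3.86 for DREB1A, -5.21 for CBF1 and -6.97 for COR15B, of which COR47 was no longer called with the other Col-0 pair (-0.46). The values of CBF1 and COR15B rest on few counts, with 4 and 16 counts of CBF1 and 2 and 0 of COR15B in the triple mutant.

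On the chromosome 3 stretch the interaction was 1.297 for JAL33, 1.31 for the peroxidase gene AT3G21770, 1.39 for the chaperone gene HSP70, -1.03 for CYP71B26, -1.05 for AOC2 and -3.39 for MYB10. JAL33, CYP71B26 and AOC2 fell in both comparisons, so for these the size and not the direction differed, and AOC2 was just short of the threshold with the other Col-0 pair (-0.998). On the chromosome 5 stretch it was 1.59 for AT5G45280, 2.49 for AT5G47250, 4.18 for AT5G55570, 1.35 for CYP81F2 and -1.33 for the ribosomal protein gene AT5G47940, beside LTI78, and the other Col-0 pair gave 2.74 for AT5G55570 (edgeR's adjusted p = 0.0537) and -0.64 for AT5G47940 (adjusted p = 0.15), not called. Elsewhere it was -1.33 for XTH15, -1.68 for BRU6 and 2.05 for AT5G15120, and -0.21 for XTH15 and -0.36 for BRU6 with the other Col-0 pair, neither called (edgeR's adjusted p = 0.215 and 0.34).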

How the results depend on the processing

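The 501 DEGs (175 higher, 326 lower) became 308 (110 and 198) in DESeq2 and 93 (25 and 68) when glmTreat tested against a fold change of 2, which asks more of each gene. They ranged from 349 to 566 without each library. Subtracting from each mutant the Col-0 columns deposited with it, an alternative chosen after seeing the data, gave 3099 (1589 and 1510), and 258 of the 501 DEGs were called in the same direction there. The interaction went from 577 genes to 3365 with the other Col-0 pair, and from 436 to 562 without each library. The share near FRS12 was 0.737% in a window of 1 Mb, with 3 DEGs. The cold list had 6 called members with at least 10 counts in each library, where fewer genes are tested. Signs turned for AHL22, from -0.0082 to 0.75 without each library, for PIN7, from -0.041 to 0.0033 without each library and 0.013 with all libraries in 1 fit, and for the AHL gene AGF2, from -0.11 to 0.0042 without each library. The within-table difference, with each mutant set against the Col-0 libraries deposited with it, turned 6 of 67 named DEGs, to -1.09 for LHY (called), 0.73 for PRR5, 0.41 for COR47, 0.79 for FKF1, 0.072 for XTH15 and 0.21 for BRU6. It also turned GSTU20 (-1.67) and BCAT3 (-0.64), MYBL2 (0.34), TT5 (-0.023), AGF2 (0.52) and PIN7 (0.021), and AHL22 was called there at 2.96. The cause was not tested.

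Replicate numbers did not pair the samples (correlation of same-numbered deviations -0.0142), and a replicate block gave 473 DEGs (165 and 308). Of 960 alternative values of named genes (glmTreat left out), 855 kept their direction and side of the threshold, 88 no longer passed, 1 newly passed and 16 turned. Of 67 named DEGs, 36 were called in every one of these alternatives that tested them, and glmTreat called 34. With 2 libraries a group, small changes of low genes could not be resolved.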

Other observations

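Genes of starch breakdown, a group chosen after values had been seen, were lower in the triple mutant. Of 17 tested genes 13 fell at an adjusted p below 0.05 in edgeR's test and the other 4 did not pass, while 11.2% of all tested genes fell, with a median log2 fold change of -0.63. By the within-table difference, 3 were higher and 2 lower. The DEGs were SEX1 (-1.09) and PWD (-1.34), the dikinases that phosphorylate starch at night, and PHS2 (-1.18), a cytosolic glucan phosphorylase. In frs7 frs12 against Col-0 the median was 0.20, with 4 genes higher and 2 lower.

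Genes annotated as disease resistance proteins, mostly intracellular immune receptors and also chosen after values had been seen, were DEGs in 12 of 25 cases on the chromosome 5 stretch (48%; 3 higher, 9 lower), where 5.63% of all tested genes were, and in 2 of 96 outside both stretches (2.08%), near the 1.91% of all genes there and the 2.7% of all tested genes. Such genes lie in clusters of related copies, so their reads may be shared. AT5G46510 (chromosome 5, 18860234 to 18867015) had 25.1 and 31.0 CPM in ahl22 and 5.92 and 7.90 CPM in the triple mutant, with 24.4 and 27.0 CPM in frs7 frs12 and 20.2 and 24.4 CPM in Col-0. Its neighbours AT5G46490 and AT5G46520 had log2 fold changes of -2.08 and -2.42. Of the 12 called genes, 1 was called in the same direction in frs7 frs12 against Col-0.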
